A study of Mus musculus with 8 samples.

Results

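The growth hormone and IGF axis of the mouse liver was followed through 10 genes, chosen by symbol, out of 22059 genes in the deposited tables: the receptor Ghr, the transducer Stat5b, the hormone Igf1, its carrier subunit Igfals, the binding proteins Igfbp1, Igfbp2, Igfbp3 and Igfbp4, the receptor Igf1r and the feedback inhibitor Socs2. Their rows were taken by symbol, without a filter on any measured value, but the genes were chosen with earlier results of these data known. Each was found once in all 8 libraries. Whole livers of untreated FVB mice (FVB/NJ in the paper's Methods) were sampled at embryonic day 18 (E18), at postnatal days 14 (P14) and 28 (P28), and in adults of 3 months, with 2 libraries of poly(A)-selected RNA per stage. No allele or agent was given for any stage, and the sample labels do not give the sex of the animals or how many animals made up a library. The paper's Methods give males for adult FVB/NJ livers of 3 months taken for protein and RNA, without naming these libraries. The paper calls the libraries biological duplicates, and the p-values measure the spread between these samples.

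Growth hormone from the pituitary binds its receptor on hepatocytes, where the kinase JAK2 phosphorylates STAT5A and STAT5B, which then move to the nucleus and switch on target genes. The liver is the main source of circulating IGF-I, which travels in a complex with an IGF binding protein and the acid-labile subunit encoded by Igfals and acts on IGF-I receptors in other tissues. SOCS2 and CIS (encoded by Cish) are induced by STAT5 and turn the signal down, and insulin represses IGFBP1 in hepatocytes.

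Between 68154675 and 106055723 reads per library fell on genes, and duplicates correlated at r between 0.9956 and 0.9975 on log2(RPKM + 1) across genes. Levels below are TMM-scaled RPKM, that is, reads per kilobase of transcript and per 1000000 reads after edgeR's TMM scaling, so that they can be compared between genes and between libraries. A gene was called higher or lower at an edgeR adjusted p below 0.1. TMM factors were 1.60 and 1.54 at E18 and 0.847 to 0.888 afterwards, and scaling by library size alone moved the median log2 fold change of all genes by -0.87 from E18 to P14. Hepatocyte markers (10 genes, Alb to Fgb) summed to between 31973 and 31987 at E18 and to at least 77910 in every later library, whereas 10 haematopoietic markers summed to between 10603 and 13751 at E18 and to between 71.9 and 125 later. In such bulk tissue fewer cells of a type and less RNA per cell cannot be told apart. Of 7 exocrine pancreas genes listed, some were read mainly at E18, such as Cpa1 at 36.4 and 73.6 against at most 0.0355 later. Cela1 instead rose from a mean of 10.8 at E18 to 101 in the adult, and Cela2a was at 4.60 and 4.25. Both insulin genes, Ins1 and Ins2, were highest at E18 too. Xist, transcribed from the inactive X chromosome, was at 43.2 in E18 replicate 1, 4.67 in E18 replicate 2 and 31.8 in P14 replicate 2, and at most 0.0544 in the other 5 libraries. The Y-linked gene Ddx3y was at 0 in E18 replicate 1, 6.02 in E18 replicate 2 and 1.24 in P14 replicate 2, and between 11.7 and 13.6 in the others. Stage and sex were therefore not separate for any gene described below, and the part of sex in the steps between stages was not tested.

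The upstream sequence of the members was read from RefSeq windows on the GRCm38.p6 assembly, in which 9 of the 10 members had at least 1 window (14 windows in all). The 250 bases before each start site were searched on both strands. The motifs were TTCNNNGAA, the palindrome that STAT5 recognises, the forkhead motif CAAAACA, the HNF1 motif GTTAAT and the TATA box TATAAA, and no match covered another. The sites of Igfals, Igfbp1 and Igfbp4 are shown as the matches found in the windows of 3 members whose levels are described at length. Positions count back from the start site, which is 1. Capitals mark the motif as it reads on the strand of the gene.

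Igfals, STAT5 palindrome at positions -58 to -50 of a start site (chr17:24878163-24878191, plus strand): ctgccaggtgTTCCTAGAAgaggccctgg

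Igfals, STAT5 palindrome at positions -236 to -228 of an upstream start site (chr17:24877598-24877626, plus strand): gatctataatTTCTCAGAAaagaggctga

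Igfbp1, forkhead motif at positions -108 to -102 (chr11:7197668-7197696, plus strand): gagctcacaagCAAAACAaacttattttg

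Igfbp1, HNF1 motif on the other strand, at positions -56 to -51 (chr11:7197719-7197748, plus strand): gccctgacaatcATTAACctgtgccgcaca

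Igfbp4, TATA box at positions -28 to -23 (chr11:99041204-99041233, plus strand): ccagggggccggTATAAAgtcccgggagcc

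Among all 32851 RefSeq windows, 7.02% held the STAT5 palindrome, 5.56% the forkhead motif, 6.43% the HNF1 motif and 12.4% the TATA box. Socs2 had no window and was not searched. Among the members searched, Igfals alone held a STAT5 palindrome, in 2 of its 3 windows. The windows of Igf1, Igfbp2, Igfbp3, Igf1r and Stat5b held none of these letters. The second window of Ghr held a TATA box on the other strand. Of the genes outside the 10, Bcl6, a repressor that STAT5 controls, held 4 STAT5 palindromes in 2 windows. Socs3 held 1, and Prlr held 1 in 1 of its 3 windows. The windows of Cish, Igf2, Jak2, Stat5a and Igf2r held none of these letters, and Insr had no window. Igfbp1 and Igfbp3 are neighbouring protein-coding genes on chromosome 11, and Igfbp2 is next to Igfbp5 on chromosome 1.

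Most of the change in the axis fell between E18 and P14. Of the 10 members, all of which passed the filter on low counts, 8 were higher on P14 than at E18 (38.2% of the 17081 genes tested were higher), 1 (Igf1r) was lower (39.3% of all genes) and 1 (Igfbp1) was not called. A change over 3-fold was called for 8 members (29.2% of all genes). The median log2 fold change of the members was 3.39, against -0.03 for all genes. The 10 hepatocyte markers were all higher over this step too, all over 3-fold, with a median of 2.49. From P14 to P28, 3 members (Ghr, Igf1 and Igfals) were higher (25.2% of all genes) and 6 lower (28.6%), and 3 changed over 3-fold (9.59%). From P28 to adult, 1 (Ghr) was higher (7.94%), 4 (Igf1, Igfbp1, Igfbp3 and Stat5b) were lower (13.2%) and 5 were not called, and Igfbp1 alone passed 3-fold (3.0%). The medians of these later steps were -0.70 and -0.0027, against -0.045 and 0 for all genes. Across the whole interval from E18 to adult, 8 members were higher (39.5%) and 2 (Igfbp1 and Igf1r) lower (43.8%), and 8 passed 3-fold (40.5%). With library size in place of TMM this last split became 6 higher and 4 lower, while 22.1% of all genes were higher and 64.9% lower. The split from E18 to P14 stayed at 8 higher and 1 lower. The intervals from E18 share the E18 libraries.

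**Figure D1:**
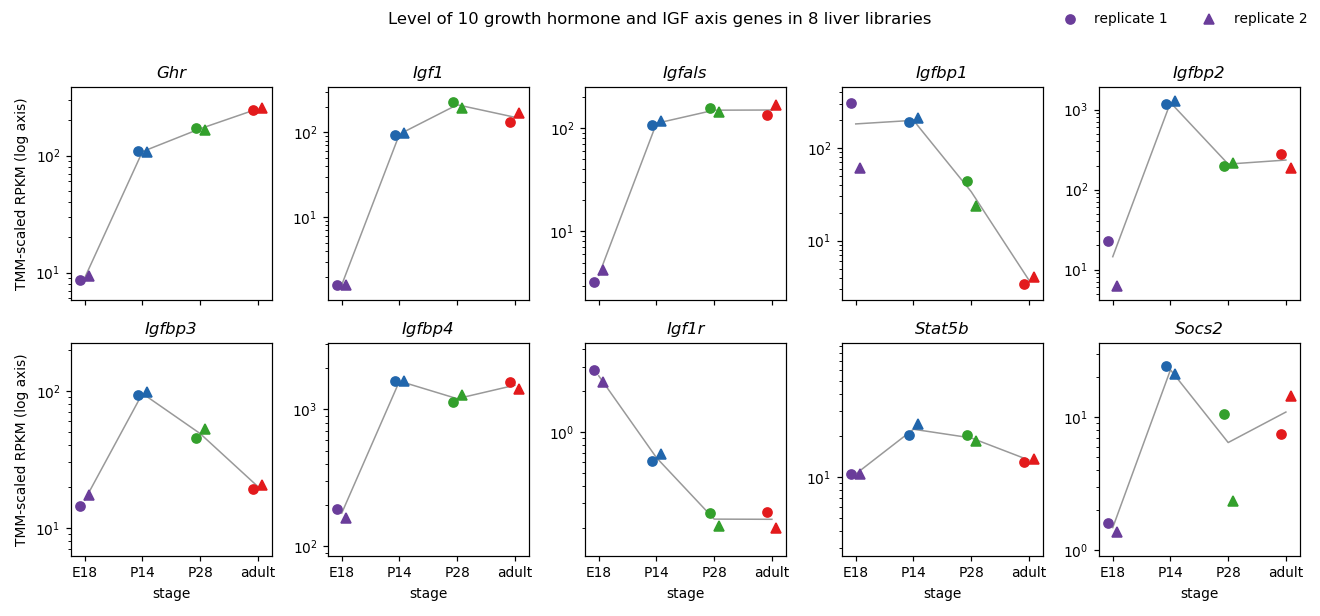
Level of each member in the 8 liver libraries, in TMM-scaled RPKM on a log axis whose range differs between panels, against stage. Circles and triangles are replicates 1 and 2, and the grey line joins the stage means. The widest gaps between duplicates are those of Igfbp1 and Igfbp2 at E18 and of Socs2 on P28. Ghr, Igf1 and Igfals are low only at E18, and Igf1r and Igfbp1 end at their lowest levels.

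**Figure D2:**
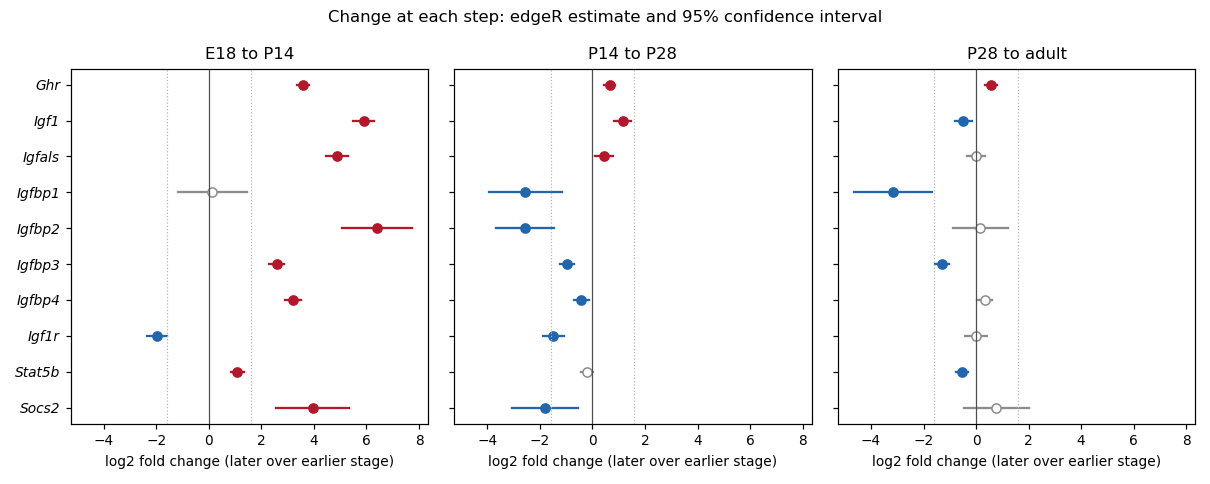
log2 fold change of each member at each step, later over earlier stage, from edgeR, with the 95% confidence interval as a bar. Red and blue filled points were called higher and lower, open grey points were not called, and dotted lines stand at 3-fold. Most changes past 3-fold are in the first panel.

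Ghr encodes the growth hormone receptor. Its level was 8.72 and 9.32 at E18, 109 and 107 on P14, 172 and 167 on P28, and 245 and 256 in adult liver. The 2 libraries of each stage were closer to each other than to any other stage, and each stage stood above the one before it. The log2 fold change was 3.58 (SE 0.11, edgeR adjusted p = 1.5e-08) from E18 to P14. It was 0.65 (SE 0.10, edgeR adjusted p = 0.00082) from P14 to P28, and 0.56 (SE 0.10, edgeR adjusted p = 0.0067) from P28 to adult. Ghr was the only member called higher at all 3 steps, and its gain over the whole interval was 4.80 (SE 0.11) on the log2 scale.

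Stat5b, the signal transducer downstream of the receptor, moved far less. It was at 10.6 and 10.4 at E18, at 20.2 and 24.3 on P14, at 20.1 and 18.3 on P28 and at 12.9 and 13.6 in the adult. The level was therefore highest on P14 and had returned towards the E18 level in the adult. It was higher on P14 than at E18 by a log2 fold change of 1.09 (SE 0.11, edgeR adjusted p = 1.5e-05), or 0.22 with library size alone. The step to P28 was not called, at -0.21 (95% interval -0.45 to 0.03), and the step to adult was, at -0.54 (edgeR adjusted p = 0.011). Adult against E18 was 0.34 (edgeR adjusted p = 0.015) with TMM and -0.51 (edgeR adjusted p = 0.0014) with library size alone, so the direction of that comparison depended on the scaling.

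Jak2 did not follow Ghr. The kinase gene was at 15.3 and 17.4 at E18 and between 4.09 and 5.50 in the 6 later libraries, a fall of 1.95 on the log2 scale by P14 (SE 0.11, edgeR adjusted p = 3.4e-07). Epor, which encodes a receptor of erythroid cells that also uses JAK2, was at 74.5 and 95.5 at E18 and at most 2.05 later. The part of haematopoietic cells in the fall of Jak2 was not tested. Stat5a, the close relative of Stat5b, was also highest on P14, with 3.93 and 3.65 at E18, 8.36 and 9.53 on P14, 6.03 and 5.11 on P28 and 2.52 and 2.99 in the adult. Its log2 fold change was 1.24 to P14 (edgeR adjusted p = 2.2e-05) and -1.02 from P28 to adult (edgeR adjusted p = 0.0016).

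Igf1 encodes the hormone itself. Its level was 1.59 and 1.61 at E18, 92.3 and 98.0 on P14, 228 and 195 on P28, and 132 and 169 in the adult. It rose by 5.89 on the log2 scale from E18 to P14 (SE 0.17, edgeR adjusted p = 1.3e-08) and by a further 1.15 to P28 (SE 0.14, edgeR adjusted p = 0.00028). Both P28 libraries were above both adult libraries, and the step from P28 to adult was -0.49 (SE 0.14, edgeR adjusted p = 0.051). That last call was lost without P28 replicate 1 (-0.37, edgeR adjusted p = 0.28) and without adult replicate 1 (-0.32, edgeR adjusted p = 0.28). The gain from E18 to adult, 6.56 (SE 0.18, edgeR adjusted p = 4.7e-09), was the largest of the 10 members.

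Ghr and Igf1 did not keep a fixed ratio. Ghr in units of Igf1, a ratio of RPKM within each library that no scaling between libraries can move, was 5.49 and 5.78 at E18, 1.18 and 1.09 on P14, 0.757 and 0.856 on P28, and 1.85 and 1.52 in the adult. The ratio fell until P28 and was higher again in both adult libraries. Over the 2520 ways to assign 8 libraries to the stages, the exact permutation p of the difference between stages was 0.00952, the smallest this design can give, and 0.00952 after adjustment over the 6 ratios compared.

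Igf2, the fetal IGF, ran the other way. It was at 703 and 717 at E18, 137 and 600 on P14, and between 0.142 and 0.228 on P28 and in the adult. The antisense gene Igf2as overlaps it, and since strand was not stated their reads may not be separable. The P14 libraries differed in Igf2 by more than 4-fold, and the lower value was in replicate 1, the library without Xist. From P14 to P28 Igf2 fell by 11.22 on the log2 scale (SE 0.80, edgeR adjusted p = 1.4e-05), or by 11.93 without P14 replicate 1 and 9.80 without P14 replicate 2. Igf1 in units of Igf2 was 0.00226 and 0.00225 at E18, 0.671 and 0.163 on P14, 1377 and 1371 on P28, and 707 and 743 in the adult (exact permutation p = 0.00952). Igf2 was thus the more abundant transcript of the pair per length in all E18 and P14 libraries and Igf1 in all later ones.

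Igfals encodes the acid-labile subunit, which holds IGF-I in the large circulating complex. It was at 3.25 and 4.27 at E18, 106 and 115 on P14, 155 and 141 on P28, and 132 and 165 in the adult. After the rise of 4.88 on the log2 scale to P14 (SE 0.18, edgeR adjusted p = 3.6e-08) it gained 0.42 to P28 (SE 0.15, edgeR adjusted p = 0.048). The P28 and adult libraries overlapped, with a difference of 0.0049 (95% interval -0.34 to 0.35). The call from P14 to P28 was lost without P14 replicate 1 (0.36), P14 replicate 2 (0.48) or P28 replicate 1 (0.35), at edgeR adjusted p of 0.20, 0.11 and 0.20. Igf1 in units of Igfals was 0.488 and 0.378 at E18, 0.872 and 0.852 on P14, 1.47 and 1.38 on P28 and 1.00 and 1.03 in the adult (exact permutation p = 0.00952). The Igf1 transcript therefore gained on that of Igfals until P28, and the RPKM of the pair were level in the adult. Igfals, which bore the STAT5 palindromes shown above, and Igf1, whose window bore none, both had their widest step from E18 to P14. A link between these sites and the step was not tested.

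The 4 binding proteins had 4 different time courses. Igfbp4, an inhibitor of IGF action that the protease PAPP-A cleaves, was the most abundant of the 10 members at every stage after birth. It was at 187 and 162 at E18, 1615 and 1599 on P14, 1131 and 1262 on P28, and 1587 and 1413 in the adult. The rise to P14 was 3.20 on the log2 scale (SE 0.14, edgeR adjusted p = 9.2e-08), and all later libraries stayed within the range from 1131 to 1615. The small fall to P28, -0.43 (edgeR adjusted p = 0.025), was lost without P14 replicate 1 (-0.42), P14 replicate 2 (-0.44) or P28 replicate 1 (-0.35), at edgeR adjusted p of 0.11, 0.10 and 0.15. The step to adult was 0.33 (95% interval 0.03 to 0.62, edgeR adjusted p = 0.13). It was called without either E18 library (edgeR adjusted p = 0.058 and 0.060) and by DESeq2 (adjusted p = 0.054).

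Igfbp2, the main fetal and neonatal binding protein of serum, peaked on P14. It was at 22.7 and 6.22 at E18, 1175 and 1279 on P14, 199 and 218 on P28, and 283 and 186 in the adult. Both P14 libraries were at least 4 times above every other library. The log2 fold change was 6.40 (SE 0.58, edgeR adjusted p = 9.3e-06) from E18 to P14, the largest single step of any member with all libraries. That rank was lost without E18 replicate 2, at 5.76, since the step of Igf1 was at least 5.86 with any library left out. From P14 to P28 the log2 fold change of Igfbp2 was -2.56 (SE 0.49, edgeR adjusted p = 0.0028). The adult libraries lay on both sides of the P28 libraries, with a difference of 0.17 (95% interval -0.87 to 1.21). Because the E18 duplicates differed 3.66-fold, the first step was 7.63 without E18 replicate 1 and 5.76 without E18 replicate 2, and adult against E18 was 5.23 and 3.37. All 4 values were called.

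Igfbp1, the acute binding protein that insulin represses, was the member with the largest fall from E18 to adult. It was at 303 and 60.7 at E18, 189 and 209 on P14, 44.0 and 23.6 on P28, and 3.43 and 4.09 in the adult, where 303 and 413 reads were counted. The P14 libraries lay between the E18 libraries, whereas each later stage stood wholly below the one before it. From E18 to P14 the log2 fold change was 0.13 (95% interval -1.18 to 1.43, edgeR adjusted p = 0.85). It became 1.71 (edgeR adjusted p = 0.0033) without E18 replicate 1 and -0.60 (edgeR adjusted p = 0.12) without E18 replicate 2, so 1 library decided its direction and its call. The fall to P28 was 2.56 (SE 0.61, edgeR adjusted p = 0.0087) on the log2 scale and the fall to adult a further 3.17 (SE 0.65, edgeR adjusted p = 0.014). Adult against E18 was -5.59 (SE 0.71, edgeR adjusted p = 7.2e-05). Without E18 replicate 1 it was -4.01 and without E18 replicate 2 it was -6.32, both called.

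The gap between the E18 duplicates was shared by Igfbp1 and Igfbp2 and was wide for the transcriptome. Replicate 1 exceeded replicate 2 by 2.32 in log2 CPM for Igfbp1 and by 1.87 for Igfbp2, and of the 17081 genes tested only 12 and 23 had a wider gap at E18. Igfbp3 and Igfbp4, at -0.28 and 0.21, did not share it. E18 replicate 1 was also the library with Xist at 43.2 and Ddx3y at 0, and its sum of haematopoietic markers was 10603 against 13751 in replicate 2. The part of these differences in the gap was not tested.

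Igfbp3, the binding protein that carries most IGF-I in adult serum together with the acid-labile subunit, was at 14.4 and 17.4 at E18, 93.8 and 97.6 on P14, 45.0 and 52.5 on P28, and 19.3 and 20.7 in the adult. It rose by 2.59 to P14 (SE 0.12, edgeR adjusted p = 1.6e-07). It then fell by 0.97 (edgeR adjusted p = 0.00025) and by 1.29 (edgeR adjusted p = 0.00031) at the next steps, all on the log2 scale. Adult against E18 was 0.33 (edgeR adjusted p = 0.029) with TMM but -0.52 (edgeR adjusted p = 0.0024) with library size alone. Within TMM that call was lost without E18 replicate 1 (0.20, edgeR adjusted p = 0.16) and without adult replicate 2 (0.28, edgeR adjusted p = 0.15). Endothelial markers, summed over 8 genes, rose and fell at the same steps, with 65.0 and 72.8 at E18, 176 and 180 on P14, 100.2 and 103 on P28 and 70.9 and 84.3 in the adult. Clec4g held much of that sum after E18, with means of 5.36 at E18, 88.2 on P14, 64.2 on P28 and 52.3 in the adult. Of these 8 markers, 6 were higher on P14 than at E18 (38.2% of all genes), 8 lower on P28 than on P14 (28.6%) and 7 lower in the adult than on P28 (13.2%). With library size alone 3 were higher and 3 lower from E18 to P14, and the 7 became 4 without either P28 library and 3 without adult replicate 2. Adult against E18, 1 endothelial marker was higher and 7 were lower (39.5% and 43.8% of all genes). The sum of 8 stellate markers had a like course, with 110 to 130 at E18, 263 to 349 on P14, 182 to 187 on P28 and 128 to 129 in the adult. Dcn and Col3a1 held most of it. From E18 to P14, 6 stellate markers were higher and 0 lower (38.2% and 39.3% of all genes), or 4 and 2 with library size alone. From P14 to P28, 1 was higher and 5 lower (25.2% and 28.6%), and from P28 to adult 0 and 4 (7.94% and 13.2%). The Kupffer cell sum fell only at the last step, from at least 209 on P28 to at most 119. Within it, Marco had already fallen from a mean of 33.5 on P14 to 7.93 on P28. The part of these cell types in the course of Igfbp3 was not tested. Igfals in units of Igfbp3 rose at every step, from 0.226 and 0.245 at E18 to 1.13 and 1.18 on P14, 3.43 and 2.69 on P28, and 6.83 and 7.98 in the adult (exact permutation p = 0.00952). The transcripts of the carrier and of the binding protein that share the circulating complex therefore parted after P14.

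Igf1r, the receptor through which IGF-I signals, was the least abundant member in all 6 postnatal libraries. It was at 2.81 and 2.33 at E18, 0.611 and 0.686 on P14, 0.256 and 0.206 on P28, and 0.261 and 0.199 in the adult, from 4674 reads at most and 158 at least. It fell by 1.99 (SE 0.17, edgeR adjusted p = 6.0e-06) to P14 and by a further 1.49 (SE 0.18, edgeR adjusted p = 0.00022) to P28, on the log2 scale. The P28 and adult libraries interleaved, with a difference of -0.010 (95% interval -0.43 to 0.41). Igf1 in units of Igf1r was 0.564 and 0.694 at E18, 151 and 143 on P14, 890 and 947 on P28, and 506 and 851 in the adult (exact permutation p = 0.00952). The receptor transcript thus exceeded that of Igf1 at E18 alone, where Igf2 averaged 710. The haematopoietic sum fell over the same interval, from at least 10603 to at most 125, and its part in the fall of Igf1r was not tested. Igf2r, which clears IGF-II, fell beside it, from 31.3 and 23.4 at E18 to 8.18 and 8.21 on P14 (log2 fold change -1.74, edgeR adjusted p = 2.8e-06). The insulin receptor gene Insr rose over the same step, from 8.16 and 6.28 to 13.7 and 14.5 (log2 fold change 0.96, edgeR adjusted p = 0.00018), but with library size alone its change was 0.09 (edgeR adjusted p = 0.56).

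Socs2, which encodes a feedback inhibitor of the growth hormone receptor, varied between duplicates after birth. It was at 1.59 and 1.36 at E18, 24.4 and 21.2 on P14, 10.5 and 2.36 on P28, and 7.54 and 14.4 in the adult. Every postnatal library was above both E18 libraries, and the P14 libraries were the highest. The log2 fold change was 3.95 (SE 0.61, edgeR adjusted p = 0.00032) from E18 to P14 and -1.82 (SE 0.55, edgeR adjusted p = 0.026) from P14 to P28. The latter was -3.28 without P28 replicate 1 and -1.11 without P28 replicate 2, both called. The step to adult was 0.76 (95% interval -0.48 to 2.00, edgeR adjusted p = 0.40) with all libraries, 2.22 (edgeR adjusted p = 0.0098) without P28 replicate 1 and 0.05 (edgeR adjusted p = 0.95) without P28 replicate 2.

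The P28 duplicates differed 4.47-fold in Socs2, a log2 gap of 2.16 that only 24 of the 17081 genes tested exceeded. Cish, the other early target of growth hormone in this class, had a gap of 1.96 in the same direction, with 44.8 in replicate 1 and 11.5 in replicate 2. Bcl6, which growth hormone represses and which antagonises STAT5, had the opposite gap, with 9.74 and 20.7. Socs3, induced mainly by cytokines that act through STAT3, also ran the other way, with 5.36 and 15.3. The members that carry the endocrine output did not share the gap, since the higher P28 duplicate exceeded the lower 1.03-fold for Ghr, 1.17-fold for Igf1 and 1.09-fold for Igfals. In the adult the Socs2 duplicates differed 1.91-fold in the other direction, and Cish was at 53.5 and 60.5. Cish, Bcl6 and Socs3 also changed between stages. Cish was higher in adult than E18 liver by 2.94 on the log2 scale (SE 0.58, edgeR adjusted p = 0.0013). Bcl6 was higher by 5.27 (SE 0.35, edgeR adjusted p = 8.1e-07) and Socs3 by 1.72 (SE 0.56, edgeR adjusted p = 0.018), the last not called with library size alone (0.85, edgeR adjusted p = 0.17), without E18 replicate 2 (1.37, adjusted p = 0.12) or without adult replicate 1 (0.92, adjusted p = 0.17).

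**Figure D3:**
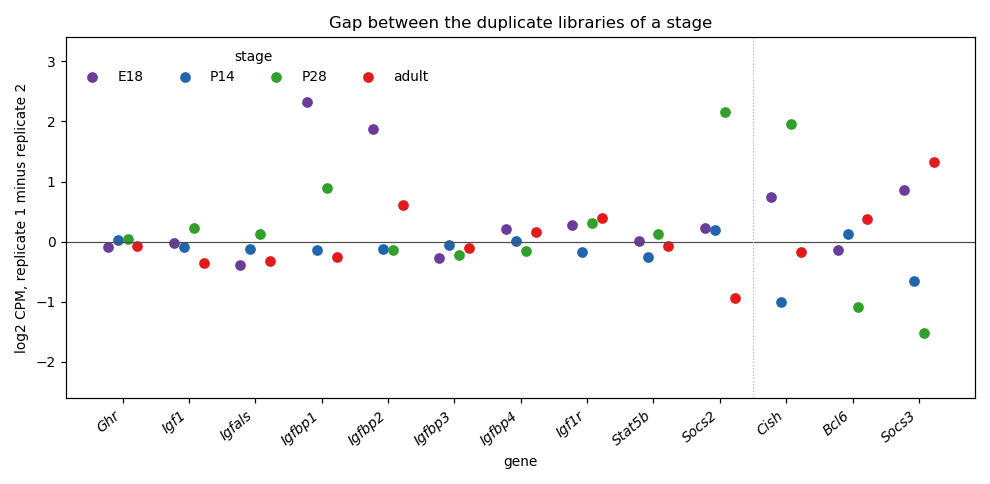
Gap between the 2 libraries of each stage in log2 CPM, replicate 1 minus replicate 2, for the 10 members and, right of the dotted line, 3 further feedback genes. Each point is 1 stage. Igfbp1 (2.32) and Igfbp2 (1.87) stand apart at E18 and Socs2 (2.16) and Cish (1.96) on P28, where Bcl6 and Socs3 have gaps of the opposite sign.

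The make-up of the binding protein transcripts turned over after birth. In the summed RPKM of Igfbp1 to Igfbp4, Igfbp1 held 57.4% and 24.6% at E18, 6.14% and 6.55% on P14, 3.10% and 1.52% on P28, and 0.181% and 0.252% in the adult. Its share was lower in every library of a stage than in any library of the stages before it. The stages differed at an exact permutation p of 0.00952 (0.0381 adjusted over the 4 shares). Igfbp2 held 4.32% and 2.53% at E18, 38.3% and 40.2% on P14, and between 11.4% and 14.9% in the 4 later libraries (exact permutation p = 0.0286, adjusted 0.0571). Igfbp4 held 35.5% and 65.7% at E18, 52.6% and 50.2% on P14, 79.7% and 81.1% on P28, and 83.9% and 87.0% in the adult (exact permutation p = 0.0667, adjusted 0.0889). Its wide spread at E18 mirrored that of Igfbp1. Igfbp3 held between 1.02% and 7.08% in every library (exact permutation p = 0.124). With any P14, P28 or adult library left out, the adjusted exact permutation p for Igfbp1 rose to between 0.20 and 0.24, with its adult minus E18 difference at -40.9 to -40.8 points. Without either E18 library the shares of Igfbp2, Igfbp3 and Igfbp4 passed an adjusted exact permutation p of 0.05.

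**Figure D4:**
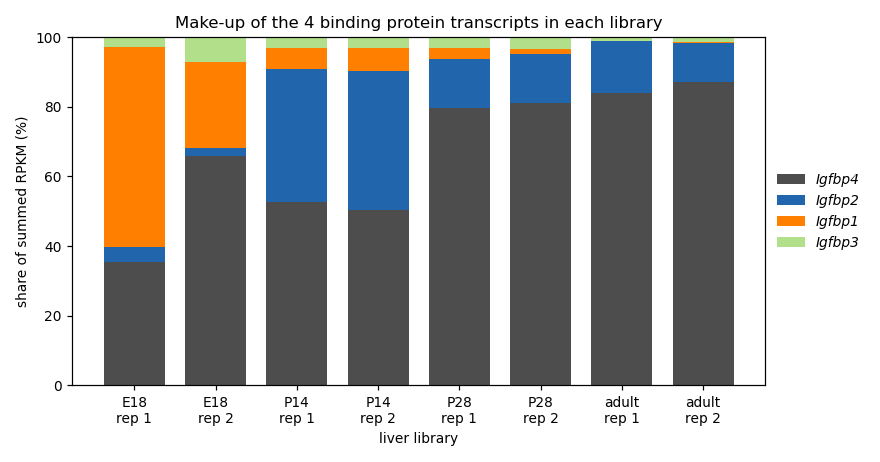
Share of Igfbp1, Igfbp2, Igfbp3 and Igfbp4 in their summed RPKM, in percent, stacked for each of the 8 liver libraries. Igfbp1 takes 57.4% and 24.6% at E18, Igfbp2 is largest on P14 (38.3% and 40.2%), and Igfbp4 takes at least 79.7% in each P28 and adult library.

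Against the binding protein transcripts together, the Igf1 transcript was scarcest at E18. Igf1 in units of the summed Igfbp1 to Igfbp4 RPKM was 0.00301 and 0.00655 at E18, 0.0300 and 0.0308 on P14, 0.160 and 0.125 on P28, and 0.0697 and 0.104 in the adult (exact permutation p = 0.00952). Both P28 libraries were above both adult libraries. The summed level of the 4 binding protein transcripts itself was 527 and 246 at E18, 3073 and 3184 on P14, 1419 and 1556 on P28, and 1893 and 1623 in the adult. It was thus highest on P14.

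The order of the members by level per length also changed. At E18 it ran Igfbp1, Igfbp4, Igfbp3, Igfbp2, Stat5b, Ghr, Igfals, Igf1r, Igf1, Socs2, and the duplicates of Igfbp1 and Igfbp4, of Igfbp3 and Igfbp2, of Igfbp2 and Stat5b, and of Igf1 and Socs2 overlapped. At P14 it ran Igfbp4, Igfbp2, Igfbp1, Igfals, Ghr, Igfbp3, Igf1, Socs2, Stat5b, Igf1r, with overlap between Igfals and Ghr, Igfbp3 and Igf1, and Socs2 and Stat5b. At P28 Igf1 had moved up to the second place, overlapping with Igfbp2, behind Igfbp4 and ahead of Ghr, Igfals, Igfbp3, Igfbp1, Stat5b, Socs2 and Igf1r. In the adult the order was Igfbp4, Ghr, Igfbp2, Igf1, Igfals, Igfbp3, Stat5b, Socs2, Igfbp1, Igf1r, and Ghr overlapped with Igfbp2, Igf1 with Igfals and Stat5b with Socs2. All other neighbours were separate in both duplicates.

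Of 52 further genes of the pathway (ligands and receptors, growth hormone signalling, feedback, other binding proteins and proteases, IGF and insulin signalling), 51 were tested. From E18 to P14, 21 were higher and 16 lower (38.2% and 39.3% of all genes), and from P14 to P28 13 and 14 (25.2% and 28.6%). From P28 to adult 5 and 10 (7.94% and 13.2%), and from E18 to adult 25 and 22 (39.5% and 43.8%), were higher and lower. With library size alone the first of these splits became 13 and 33 and the last 12 and 32. The count from P28 to adult fell from 15 to 8 without P28 replicate 1, to 7 without adult replicate 1 and to 8 without adult replicate 2. The median log2 fold change of these genes was -0.0034, 0, 0.018 and 0.13 in the same order. The members' own medians were 3.39, -0.70, -0.0027 and 2.999, close to those of the wider pathway only from P28 to adult. Those of the 10 hepatocyte markers were 2.49, 0.075, 0.054 and 2.56.

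The largest increases of the wider pathway from E18 to adult were of Prlr, Bcl6 and Grb14. Prlr, the prolactin receptor, which also signals through STAT5, was at 0.0886 and 0.0335 at E18, 17.8 and 15.6 on P14, 27.6 and 22.3 on P28, and 10.9 and 9.65 in the adult. It was 7.38 higher in adult than E18 liver on the log2 scale (SE 0.37, edgeR adjusted p = 1.2e-07; 8.26 without E18 replicate 1), followed by Bcl6 and by Grb14, an adaptor that inhibits the insulin receptor, at 3.23 (SE 0.12, edgeR adjusted p = 1.7e-08). Like Igf1, Prlr had its highest levels on P28, and it was lower in the adult than on P28 (-1.28, edgeR adjusted p = 0.017), a call lost without adult replicate 2 (-1.20, edgeR adjusted p = 0.105). The largest decreases were of Ins2, Igf2 and Ins1. Ins1 was at 0.821 and 2.50 at E18 and at 0 in all later libraries, and Ins2 at 4.53 and 13.4 at E18, 0.405 and 1.17 on P14 and 0 thereafter, and both were higher in the E18 library with the higher Cpa1. The part of pancreatic tissue in them was not tested. Among other binding proteins, Igfbp7, which endothelial cells express, rose and fell at the same steps as Igfbp3, with 18.7 and 15.6 at E18, 155 and 160 on P14, 99.8 and 100.3 on P28 and 72.1 and 73.2 in the adult.

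The sex-biased genes of the liver are a known readout of the pattern in which growth hormone is secreted. Xist, however, averaged 23.9 at E18 and 15.9 on P14 but 0.0463 on P28 and 0.0392 in the adult. Stage and sex were thus not separate for the male-biased list, the female-biased list or the members, and the part of sex was not tested. Of 12 male-biased targets, 9 were higher and 2, the paralogues Cyp4a12a and Cyp4a12b, lower on P14 than at E18 (38.2% and 39.3% of all genes). On P28 against P14, 11 were higher and 0 lower (25.2% and 28.6%), and in the adult against P28 7 higher and 0 lower (7.94% and 13.2%). The last count was 4 without P28 replicate 1 (3 higher and 1 lower) and 3 without adult replicate 2. All 12 were higher in adult than E18 liver (39.5% of all genes). Elovl3, a fatty acid elongase, was at 0.0268 and 0.0304 at E18, 0.795 and 0.782 on P14, 95.5 and 182 on P28, and 78.0 and 115 in the adult. Slco1a1, an organic anion transporter, was at 0.0381 and 0.0124, then 17.5 and 18.9, 239 and 242, and 275 and 312 in the same order of stages. Mup20, a urinary protein with close paralogues among which its reads may be split, was at 0 in both E18 libraries and at 17.7 and 19.8 in the adult. Slco1a1 thus had its wider step from E18 to P14, as Igf1 did (log2 fold changes of 9.43 and then 3.72), and Elovl3 had it from P14 to P28 (4.75 and then 7.46).

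Of 12 female-biased targets, 11 were higher and 1 (Cux2) lower on P14 than at E18 (38.2% and 39.3% of all genes). Cux2 was not called there without E18 replicate 1 or P14 replicate 1. Then 1 (A1bg) was higher and 8 lower on P28 (25.2% and 28.6%), and 1 (Sult1e1) higher and 8 lower in the adult (7.94% and 13.2%). Hao2, a hydroxyacid oxidase, was at 11.9 and 12.9 at E18, 198 and 211 on P14, 62.5 and 23.3 on P28, and 0.0842 and 0.0590 in the adult, a log2 fold change of -9.23 (SE 0.59, edgeR adjusted p = 5.1e-05) over the last step. Cux2, a transcription factor of female liver, fell by 5.14 on the log2 scale from E18 to adult (SE 0.37, edgeR adjusted p = 1.3e-06), and Acot3, an acyl-CoA thioesterase, fell by 2.40 (SE 0.56, edgeR adjusted p = 0.0035), or by 3.98 and 1.62 without adult replicate 1 and 2. From E18 to adult 5 of the 12 were higher and 3 lower (39.5% and 43.8% of all genes), or 2 and 3 with library size alone or without adult replicate 1, and 3 and 3 without E18 replicate 2. The higher ones with the largest changes were read at very low levels at E18. Sult1e1 had 0 and 1 reads there, A1bg 0 and 1, and Cyp2a4 2 and 2 reads against 6 and 1 in the adult. A1bg was highest on P28, at 107 and 24.3.

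The P28 duplicates also differed in these targets. All 12 male-biased genes were lower in P28 replicate 1 than in replicate 2, with a median log2 gap of -0.71, and 8 of 12 female-biased genes were higher in replicate 1, with a median of 0.61. Among all genes 53.8% were higher in P28 replicate 1. Neither P28 library held Xist above 0.0544, and Ddx3y was at 11.8 and 12.02. In the adult, all 12 male-biased genes were likewise lower in replicate 1 (median -0.43) and 10 of 12 female-biased genes higher (median 0.51), while 48.9% of all genes were higher in replicate 1. Socs2 was higher in replicate 1 on P28 (log2 gap 2.16) but lower in it in the adult (-0.93). At P14, where replicate 2 held Xist at 31.8, 6 of the 12 genes of each list were higher in replicate 1.

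**Figure D5:**
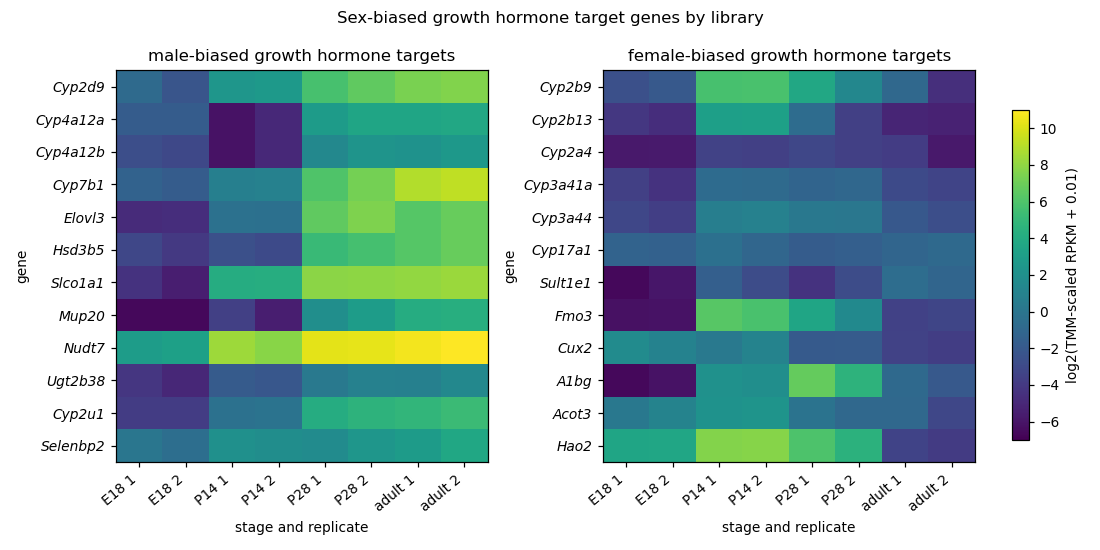
log2(TMM-scaled RPKM + 0.01) of 12 male-biased (left) and 12 female-biased (right) growth hormone target genes in the 8 libraries, in stage order with replicates 1 and 2 side by side. The male-biased genes are bright in the P28 and adult libraries, and most female-biased genes are brightest on P14 or P28 and dark in the adult.

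Genes that respond to fasting and insulin, a list fixed beside Igfbp1, moved mostly between E18 and P14. Of 12, 7 were higher and 3 (Asns, Irs2 and Sesn1) lower on P14 than at E18 (38.2% and 39.3% of all genes). On P28 against P14, 3 (Tat, Trib3 and Sesn1) were higher and 4 (Asns, Fgf21, Ppargc1a and Srebf1) lower (25.2% and 28.6%), and in the adult against P28 only Asns was called, as lower (13.2%). Pck1 and G6pc, the gluconeogenic enzymes, were at 0.105 and 0.253 and at 0.128 and 0.0619 at E18. At P14 they were at 1370 and 1353 and at 222 and 375, and Pck1 remained between 1039 and 1249 later, while G6pc ranged from 112 to 461. Tat, a tyrosine aminotransferase that also served as a hepatocyte marker, was 12.41 higher in adult than E18 liver on the log2 scale (SE 0.25, edgeR adjusted p = 1.3e-09). Asns, an amino acid stress gene, fell by 8.27 (SE 0.20, edgeR adjusted p = 2.9e-09), Irs2 by 1.07 (SE 0.26, edgeR adjusted p = 0.0046) and Ddit4 by 0.95 (SE 0.24, edgeR adjusted p = 0.0052) over the same interval. Asns was thus the only gene of this list called lower at all 3 steps with all libraries. Its last step, -0.80, was not called without P28 replicate 2 (-0.68, edgeR adjusted p = 0.16) or without adult replicate 1 (-0.61, edgeR adjusted p = 0.20). The list had 0 calls at that step without P28 replicate 2 and 3 without either P14 library. Igfbp1 fell at the 2 later steps, at which Pck1 was not called (log2 fold changes of -0.23 and -0.02).

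The genes whose courses were most like those of the members are given as a description, by Pearson's r of log2 CPM over the 8 libraries among 4990 genes of sufficient level and range. The libraries share 4 stages, so that any pair of genes with the same birth step correlates. Nearest to Ghr were Ftcd (r = 0.9994), 1300018J18Rik and Ang, and 465 genes exceeded 0.99. Nearest to Igf1 were LOC547349 (r = 0.9996), Tymp and Entpd8, with 395 genes above 0.99. Nearest to Igfals were Ifitm3 (r = 0.9995), AI464131 and Ei24, with 516. The courses of these 3 members were therefore common ones. No gene exceeded 0.99 for Igfbp1 or Igfbp2. Their E18 duplicates differed by 2.32 and 1.87 in log2 CPM. Because r was taken over single libraries, it reflects these gaps as well as the course over the stages. The nearest were Jak3 (r = 0.982), Zcchc11 and Rgl1 for Igfbp1, and Zfp839 (r = 0.9896), Rnf128 and Myo10 for Igfbp2. Nearest to Igf1r were Mthfd1l (r = 0.9955), Rrm2 and Nt5dc2, with 22 genes above 0.99.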

How the data were processed

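The data were poly(A) RNA-seq of whole liver from FVB (FVB/NJ in the Methods) mice, 2 libraries at each of 4 stages, grouped by the stage and replicate in the sample labels. RNA was isolated with Trizol per the labels and with RNeasy per the Methods. The authors deposited, for 22059 genes, raw counts of 100 bp reads per gene and RPKM, which scale the count by transcript length in kilobases and by 1000000 mapped reads. The submitters' processing notes name mm9. The aligner followed a published method, and its version is not given in the sources used here. Dividing counts by the deposited RPKM gave the gene lengths and library totals (73844259 to 112713530 reads, 91.4 to 94.1% of them on genes). Duplicates differed by more than sampling noise (chi-square per degree of freedom 52.0 to 98.8).

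Counts were filtered with filterByExpr, scaled by TMM and fitted with edgeR 4.0.16 (glmQLFit, glmQLFTest, R 4.3.3), with 1 coefficient per stage over all 8 libraries. Adjusted p-values are Benjamini-Hochberg over 17081 genes, a gene was called at a false discovery rate below 0.1, and changes over 3-fold were counted as well. Shares and ratios within a library were compared over all 2520 assignments of libraries to stages (two-sided, exact), where the smallest p is 0.00952. A comparison of 2 libraries against 2 alone could not go below 0.33. DESeq2 1.42.0 and limma 3.58.1 on log2(RPKM + 0.1) were alternatives. Both scripts were tested on simulated data.

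The members and gene lists were chosen with earlier results of these data known. Named were all members, a fixed set of pathway genes (Igf2, Igf2r, Insr, Prlr, Jak2, Stat5a, Cish, Socs3), and the 3 largest increases and decreases from E18 to adult in each of the pathway, male-biased, female-biased and fasting lists. Likeness was computed over genes of at least 10 CPM on average. Igfbp7, Epor, Xist, Ddx3y and the pancreas genes were named after their values were seen, as were the members of counts of 5 or fewer.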

Additional observations from a re-analysis of the deposited data

How the results depend on the processing

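Over all alternatives, 668 of 720 member fold changes kept their direction and their side of the threshold, 26 lost the call, 8 gained it and 18 changed sign. Requiring 3-fold left 3 members called from P14 to P28 and 1 from P28 to adult. Member counts otherwise stayed within 1.5 times, with 9 to 10, 7 to 9, 4 to 6 and 9 to 10 called over the 4 comparisons when 1 library was left out. The sign changes with a call on both sides were Igfbp3 and Stat5b from E18 to adult, at -0.52 and -0.51 with library size alone and -0.54 and -0.53 with limma, where the median of all genes shifted by -0.85 and -0.86. At least 10 counts in every sample took both below the threshold (0.19 and 0.20). The other sign changes were of values not called: Igfbp1 from E18 to P14 (-0.76 with library size, -0.31 with limma, -0.60 to 1.71 with a library left out), and from P28 to adult Igfals (-0.0036 with no filter, -0.0011 with at least 10 counts, -0.0012 with 2 stages only, -0.0086 with a replicate block, -0.17 to 0.16 with a library left out), Igf1r (0.018 with library size, 0.0069 with limma, -0.22 to 0.17) and Igfbp2 (-0.17 to 0.43). Binding protein shares, adult minus E18, ranged with a library left out from -57.2 to -24.4 points for Igfbp1, 8.03 to 11.5 for Igfbp2, -5.94 to -1.59 for Igfbp3 and 19.7 to 49.9 for Igfbp4. The cause of these shifts was not tested. Igf1 from P28 to adult was not called at a false discovery rate of 0.05. The replicate numbers did not pair the libraries (r of deviations -0.41 to 0.18), and a replicate block left 9, 9, 5 and 10 members called. Every member had at least 158 reads in every library, and with 2 libraries per stage the exact tests cannot compare single pairs of stages.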
